A study of Homo sapiens with 4 samples.

Results

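Claudins and their tight junction partners are the 9 genes CLDN1, CLDN3, CLDN4, CLDN7, CLDN10, CLDN12, OCLN, TJP1 and F11R, taken by symbol from the platform annotation. Their 12 probes with values were read among 43893 on each of 4 bead arrays, and 8 of the 12 were above background among 16950 such probes. The probes read 8 of the 9 genes. No probe with values carried the symbol F11R, the gene of the adhesion molecule JAM-A, so it was not analysed here. Total RNA came from a prostate cancer cell line that the labels spell DU154, with 2 arrays of cells labelled mH2A1.2_KO and 2 arrays of wild type cells. In the first group mH2A1.2 was depleted. This protein is one of the splice isoforms of macroH2A1, a histone variant. The method and the number of clones behind the depletion are not given in the sources used here. Genotype alone separates the groups in the labels.

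Tight junctions seal the space between neighbouring epithelial cells near their apical side. Claudins are small proteins that cross the membrane and bind each other within and between cells. Some claudins close the paracellular path and others form ion pores, so the set that a cell makes decides what its junctions let through. Occludin and the JAM proteins lie in the same membrane strands, and scaffold proteins of the ZO family tie the strands to actin. Claudin levels are often altered in carcinomas, including those of the prostate.

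Signals are normalized values on the log2 scale, so a difference of 1 is 2-fold, and each difference is mH2A1.2_KO minus wild type. A probe counted as above background when its detection p-value was under 0.01 on at least 2 of the 4 arrays. Taken alone, the arrays had 16921 and 16962 probes under 0.01 in mH2A1.2_KO and 18377 and 16727 in wild type, and the number of arrays limits the precision. The brightest probe of MACROH2A1, the targeted gene, measured 11.97 and 11.83 in mH2A1.2_KO and 13.02 and 12.91 in wild type, and its other detected probes differed by -1.02 and 0.62. Those other probes went in opposite directions though both are annotated to the same RefSeq transcript, and the brightest is annotated to another. No MACROH2A1 probe passed 0.05 in limma with Benjamini-Hochberg adjustment (adjusted p from 0.246 to 0.626). Which splice forms these probes read was not tested. The 2 deposited tables name a pair of arrays in opposite ways, and groups here follow the normalized table. Under the raw table's naming that brightest probe differed by -0.12, and the others by 0.027 and -0.45 in the order given above. All 4 epithelial markers checked (KRT8, KRT18, EPCAM and CDH1) were detected. Their summed raw signal, with the brightest probe of each gene, was 6750 and 6265 in mH2A1.2_KO and 3533 and 3197 in wild type. Its part in the results below was not tested. The markers did not differ alike: KRT8 differed by 1.68, CDH1 by 0.65, KRT18 by 0.50 and EPCAM by 0.43. KRT18 overlapped between groups, at 8.67 and 8.27 in mH2A1.2_KO and 7.58 and 8.35 in wild type. None of the 4 passed the same adjusted test. The luminal prostate genes KLK2, KLK3 and TMPRSS2 were not above background, nor were PTPRC, CD3E, PECAM1, CDH5, VWF, COL1A2, COL3A1 and PDGFRB, which mark other cell types. COL1A1 and CD68 were detected, and their differences were -0.053 and 0.36. The summed raw signal of the leukocyte markers PTPRC, CD3E and CD68 was 1478 and 1667 in mH2A1.2_KO and 1217 and 1292 in wild type. Of these markers only CD68 was above background, so the sum also holds background signal of PTPRC and CD3E. The part of this sum in the results was not tested.

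CLDN10 measured lower in both mH2A1.2_KO arrays on both of its detected probes. The gene encodes claudin-10, an ion pore claudin best known from kidney tubules. Alternative first exons give it 2 main protein forms with different charge selectivity. Its brighter probe measured 7.61 and 7.25 in mH2A1.2_KO and 9.04 and 8.29 in wild type. Every mH2A1.2_KO array was below every wild type array, and the difference was -1.24 ± 0.28 (SE, n = 2 arrays each) or 2.35-fold, with a 95% confidence interval of -1.92 to -0.55. The raw signals behind these values were 239.2 and 207.9 in mH2A1.2_KO and 605.4 and 349.0 in wild type, all above background.

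The second CLDN10 probe, annotated to the same RefSeq transcript, measured 6.97 and 6.61 in mH2A1.2_KO and 7.78 and 7.22 in wild type. Its arrays did not overlap between groups either, and the difference was -0.71 ± 0.24 or 1.63-fold. It was above background on 1 of the 2 mH2A1.2_KO arrays and on both wild type arrays. The third probe reads, by its annotation, a different CLDN10 transcript. It had detection p-values from 0.756 to 0.964 and was not above background on any array. The reference used here does not place the probes in exons, and a probe can read exons that transcripts share, so the detected signal is not assigned to 1 form. In bulk RNA, fewer cells that make CLDN10 and less CLDN10 RNA per cell cannot be told apart.

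The CLDN10 difference did not pass the test over all probes. limma, with Benjamini-Hochberg adjustment over 16950 probes, gave an adjusted p of 0.397 for the brighter probe and 0.568 for the second, where 0% of all detected probes were called at 0.05. Among the detected probes 0.289% had a larger absolute difference than the brighter CLDN10 probe and 2.25% a larger one than the second. Without wild type replicate 2 the brighter probe differed by -1.61, and without wild type replicate 1 by -0.86. Those fits hold 1 wild type array, so wild type spread does not enter them and no p-value is given. Under the raw table's naming the brighter probe differed by -0.56. Without wild type replicate 1 the second probe differed by -0.43, and from raw signals processed with neqc it differed by -1.26.

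**Figure D1:**
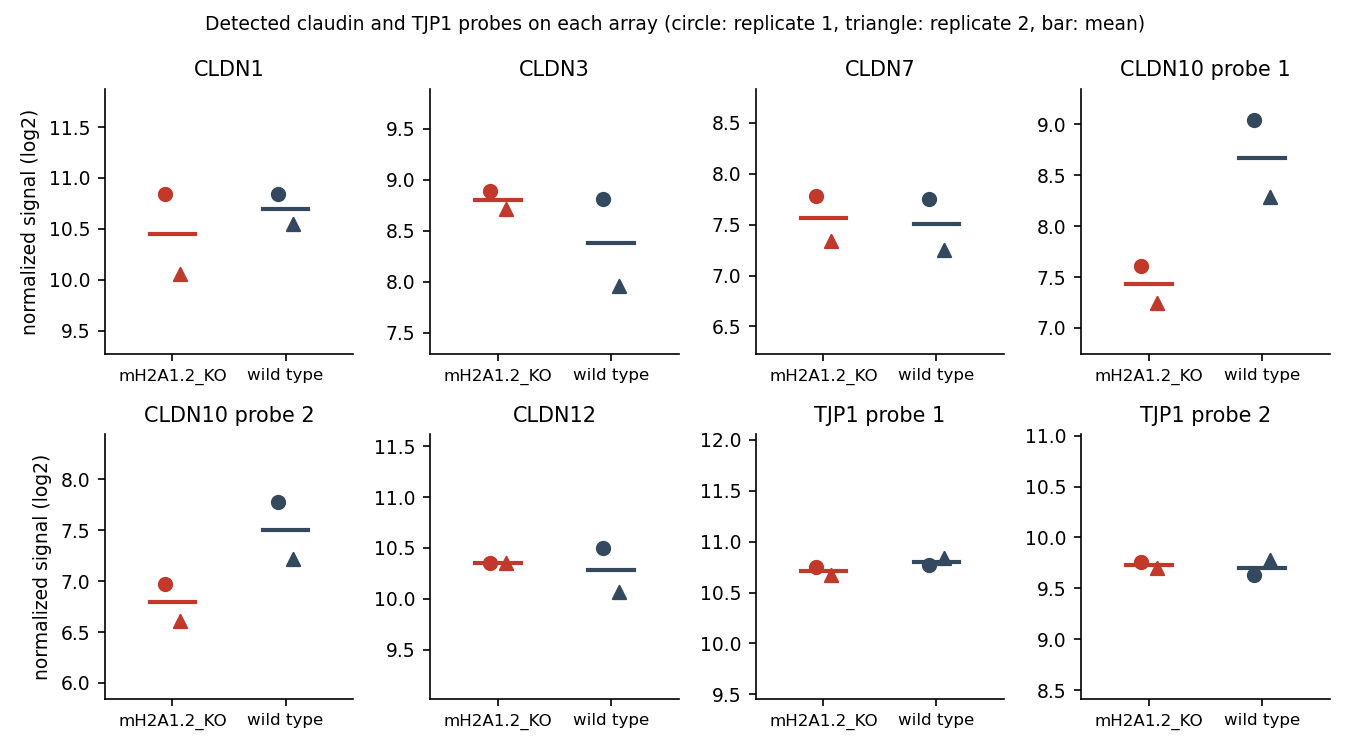
Normalized signal (log2, vertical axis, each panel spanning the same number of log2 units) of the 8 detected probes on the mH2A1.2_KO arrays (red, left) and the wild type arrays (dark, right), with circles for replicate 1, triangles for replicate 2 and bars for group means. Both CLDN10 panels show every mH2A1.2_KO array below every wild type array, while the TJP1 panels are nearly flat.

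CLDN10 lies on chromosome 13 from 95433755 to 95579759 (GRCh38.p14). RefSeq gives the gene a pair of starts 118965 bases apart, and the 250 bases before each are shown because the probes are annotated to 2 of its transcripts. The reference does not say which start belongs to which transcript. In each sequence, read on the strand of the gene, CpG dinucleotides are in capitals.
CLDN10 first start, chr13:95433505-95433754, plus strand: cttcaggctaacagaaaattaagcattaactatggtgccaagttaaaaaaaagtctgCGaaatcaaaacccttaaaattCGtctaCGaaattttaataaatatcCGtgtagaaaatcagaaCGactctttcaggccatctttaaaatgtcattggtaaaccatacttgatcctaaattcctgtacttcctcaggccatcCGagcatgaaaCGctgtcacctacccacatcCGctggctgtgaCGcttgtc
CLDN10 second start, chr13:95552470-95552719, plus strand: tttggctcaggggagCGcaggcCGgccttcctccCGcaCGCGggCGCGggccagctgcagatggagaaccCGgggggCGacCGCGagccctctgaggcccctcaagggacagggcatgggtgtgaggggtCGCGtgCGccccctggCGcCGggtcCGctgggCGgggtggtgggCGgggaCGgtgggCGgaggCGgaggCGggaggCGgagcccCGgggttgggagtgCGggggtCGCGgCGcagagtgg
The upstream window of the first start holds 9 CpG and is 39.6% G and C, while that of the second holds 29 CpG and is 78.0% G and C. Of 35116 RefSeq promoter windows of the same length, 45.9% have fewer CpG than the first and 85.9% fewer than the second. The arrays say nothing of activity at either start.

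The other detected claudins showed no difference that passed the test. CLDN3, a sealing claudin that also serves as a receptor for an enterotoxin of Clostridium perfringens, measured 8.89 and 8.71 in mH2A1.2_KO and 8.81 and 7.95 in wild type. The groups overlapped, since wild type replicate 1 lay between the mH2A1.2_KO arrays. The difference was 0.42 ± 0.29 (adjusted p = 0.873 by limma), and it was -0.0046 without wild type replicate 2, 0.85 without wild type replicate 1 and -0.52 under the raw table's naming.

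CLDN1, a sealing claudin needed for the barrier of skin, measured 10.84 and 10.06 in mH2A1.2_KO and 10.84 and 10.55 in wild type. The highest array of each group read alike, and mH2A1.2_KO replicate 2 was the low one. The difference was -0.25 ± 0.28 (adjusted p = 0.956 by limma). When replicate 1 or replicate 2 of mH2A1.2_KO was left out it was -0.64 or 0.15, and when replicate 1 or replicate 2 of wild type was left out it was -0.10 or -0.39. Under the raw table's naming it was -0.54. Its direction rested on a single array, mH2A1.2_KO replicate 2.

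CLDN7, a claudin found along the sides of epithelial cells as well as in tight junctions, measured 7.79 and 7.34 in mH2A1.2_KO and 7.75 and 7.25 in wild type. The gap between arrays of a group, 0.45 in mH2A1.2_KO and 0.50 in wild type, was far wider than the group difference of 0.060 ± 0.243. CLDN12, a claudin that lacks the PDZ-binding end of most other claudins, measured 10.36 and 10.35 in mH2A1.2_KO and 10.50 and 10.07 in wild type. Its mH2A1.2_KO arrays lay between the wild type arrays, and the difference was 0.067 ± 0.196. The adjusted p from limma was 0.991 for CLDN7 and 0.989 for CLDN12. The 95% confidence intervals, -0.53 to 0.65 for CLDN7 and -0.41 to 0.54 for CLDN12, leave room for differences of up to about 1.57-fold and 1.45-fold. With 1 array left out CLDN7 ran from -0.19 (without wild type replicate 2) to 0.31 (without wild type replicate 1), and it was -0.16 or 0.28 when replicate 1 or replicate 2 of mH2A1.2_KO was left out. CLDN12 ran from -0.15 without wild type replicate 2 to 0.28 without wild type replicate 1.

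**Figure D2:**
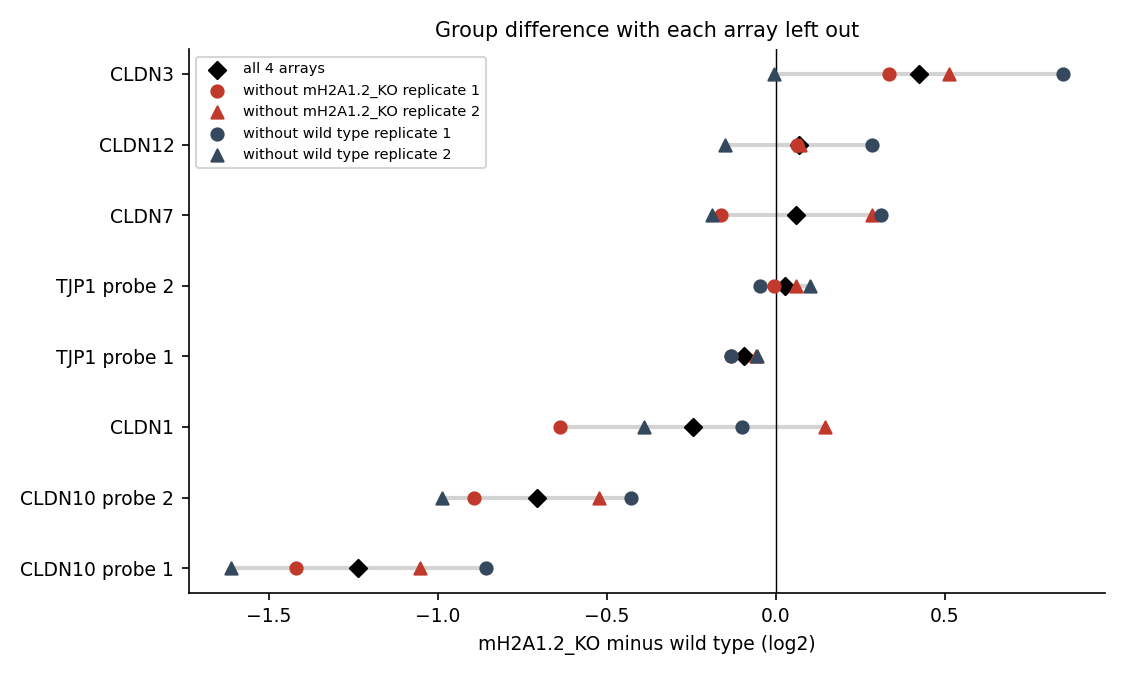
Group difference (mH2A1.2_KO minus wild type, log2, horizontal axis) of each of the 8 detected probes with all 4 arrays (diamond) and with 1 array left out (red for an mH2A1.2_KO array, dark for a wild type array, circle for replicate 1, triangle for replicate 2). Both CLDN10 probes and the first TJP1 probe stay below 0 in all 5 settings plotted, while CLDN1, CLDN3, CLDN7, CLDN12 and the second TJP1 probe cross 0. The arrays of both CLDN10 probes and the first TJP1 probe do not overlap between groups, so leaving out 1 array could not move them across 0.

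CLDN4, a close relative of CLDN3 and the first enterotoxin receptor described, was not above background on any array. Its detection p-values were 0.281 and 0.252 in mH2A1.2_KO and 0.136 and 0.0247 in wild type, with raw signals of 135.0 and 137.4 in mH2A1.2_KO and 140.1 and 149.1 in wild type. CLDN3 and CLDN4 are neighbours on chromosome 7, with 60725 bases between them in GRCh38.p14, and CLDN3 was detected on all 4 arrays. The 250 bases before each start are shown because this pair of neighbours differed in detection, again with CpG in capitals.
CLDN3, chr7:73770271-73770520, minus strand: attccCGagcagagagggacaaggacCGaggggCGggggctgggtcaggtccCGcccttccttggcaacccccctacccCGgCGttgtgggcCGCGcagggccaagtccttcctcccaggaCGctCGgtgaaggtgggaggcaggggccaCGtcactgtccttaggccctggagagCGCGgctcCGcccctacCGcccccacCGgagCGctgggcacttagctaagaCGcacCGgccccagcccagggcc
CLDN4, chr7:73830746-73830995, plus strand: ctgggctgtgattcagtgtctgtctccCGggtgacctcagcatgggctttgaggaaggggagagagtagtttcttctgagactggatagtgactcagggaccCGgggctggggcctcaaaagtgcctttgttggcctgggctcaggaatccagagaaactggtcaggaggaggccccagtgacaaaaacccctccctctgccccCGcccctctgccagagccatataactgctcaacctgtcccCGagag
The CLDN3 window holds 19 CpG and is 71.6% G and C, and the CLDN4 window holds 4 CpG and is 58.8% G and C. Of all windows in the table, 65.4% have fewer CpG than that of CLDN3 and 29.3% fewer than that of CLDN4. Each of these genes was read by 1 probe, and whether the windows bear on detection was not tested.

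OCLN, which encodes the tight junction membrane protein occludin, was read by 2 probes, and neither was above background on any array. Detection p-values ran from 0.671 to 0.988 over both probes. No group difference is given for OCLN or CLDN4, because at these signals the probes did not measure a level.

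TJP1 encodes ZO-1, the scaffold that links claudins and occludin to actin, and its probes varied least over the 4 arrays among the 8 detected. Its brighter probe measured 10.75 and 10.67 in mH2A1.2_KO and 10.77 and 10.84 in wild type. The arrays did not overlap, but they lay close, with a difference of -0.095 ± 0.155 (adjusted p = 0.980 by limma). The second probe, annotated to another transcript, measured 9.76 and 9.70 in mH2A1.2_KO and 9.63 and 9.78 in wild type, and its groups overlapped. Its difference was 0.028 ± 0.159 (adjusted p = 0.995). The 95% confidence intervals were -0.47 to 0.28 and -0.36 to 0.41, which correspond to ratios of mH2A1.2_KO to wild type between 0.722 and 1.21 for the first probe and between 0.781 and 1.33 for the second. The second probe differed by 0.10 without wild type replicate 2, -0.046 without wild type replicate 1, and -0.0048 or 0.060 when replicate 1 or replicate 2 of mH2A1.2_KO was left out.

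Over the 8 detected probes of these genes, 4 measured higher and 4 lower in mH2A1.2_KO, where 47.9% of all detected probes were higher, with a median difference of -0.034 against -0.010 over all detected probes. Arrays did not overlap between groups for 3 of the 8, all of them lower, and for 35.7% of all detected probes (17.1% higher, 18.5% lower). The 3 probes were both CLDN10 probes and the first TJP1 probe, a share close to that background. An unadjusted p under 0.05 was found for 2 of the 8, both of CLDN10, against 7.56% of all detected probes, and limma called 0 of the 8 after adjustment, with 0% called over all probes. The probes did not move one way. CLDN10 stood at one end, CLDN3 at the other, and TJP1 and CLDN12 near 0.

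The wider set of tight junction genes was described with 1 probe per gene, the detected probe with the highest mean. It held 59 symbols, of which 51 had a probe with values and 27 were detected. Of the 27, 13 measured higher and 14 lower, where 48% of all features were higher, with a median of -0.018 against -0.011 over all 13786 features. Arrays did not overlap for 11 of the 27, 5 higher and 6 lower, and for 35.8% of all features (17.1% higher, 18.7% lower). limma called 0 of the 27 at an adjusted p under 0.05, as for 0% of all features, and 3 had an unadjusted p under 0.05, against 7.81% of all features.

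CLDN11 differed most in that set and in the direction opposite to CLDN10. It encodes claudin-11, which forms the junctions of myelin and of Sertoli cells. It measured 11.32 and 11.38 in mH2A1.2_KO and 10.36 and 10.24 in wild type, so the arrays of the groups were well apart and those of each group close together. The difference was 1.05 ± 0.16 or 2.07-fold, with a 95% confidence interval of 0.67 to 1.43 and an adjusted p of 0.246 by limma. It differed by 1.11 without wild type replicate 1 and by 0.99 without wild type replicate 2. Those fits hold 1 wild type array, so no p-value is given for them. Under the raw table's naming CLDN11 differed by -0.029. The other detected claudins outside the 9 genes were CLDN14, CLDN15 and CLDN23, with differences of -0.15, 0.17 and -0.11. Of 17 other claudin genes with a probe, 4 were detected.

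The rest held genes of the apical polarity complexes, of the junction plaque and of membrane adhesion. CRB3, a Crumbs protein that places the tight junction apically, measured 8.74 and 8.89 in mH2A1.2_KO and 8.31 and 8.22 in wild type, a difference of 0.55 ± 0.16 (adjusted p = 0.491 by limma). Its second probe differed by 0.39, and both probes had arrays that did not overlap. PALS1, the scaffold that binds CRB3 and the PATJ protein, differed by 0.27 ± 0.18, and PATJ itself by -0.050. TJAP1, a tight junction associated protein of the Golgi, measured 9.32 and 9.31 in mH2A1.2_KO and 9.73 and 9.74 in wild type, a difference of -0.42 ± 0.15 (adjusted p = 0.605). SYMPK, an RNA 3' end processing scaffold also found at tight junctions, differed by -0.33 ± 0.17. JAM3, a relative of F11R, differed by -0.28 ± 0.18, and VAPA, a membrane protein that binds occludin, by -0.20 ± 0.16. None of these genes passed the test. All but PATJ were named from genes whose arrays did not overlap, as were CLDN11 and CLDN15, so their lack of overlap is not a result. The arrays of PATJ did not overlap between groups either. Under the raw table's naming CRB3 differed by 0.032. Without mH2A1.2_KO replicate 1 PALS1 differed by 0.14, SYMPK by -0.21 and JAM3 by -0.15. Without wild type replicate 2 PALS1 differed by 0.17 and VAPA by -0.11, and without wild type replicate 1 JAM3 differed by -0.17.

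**Figure D3:**
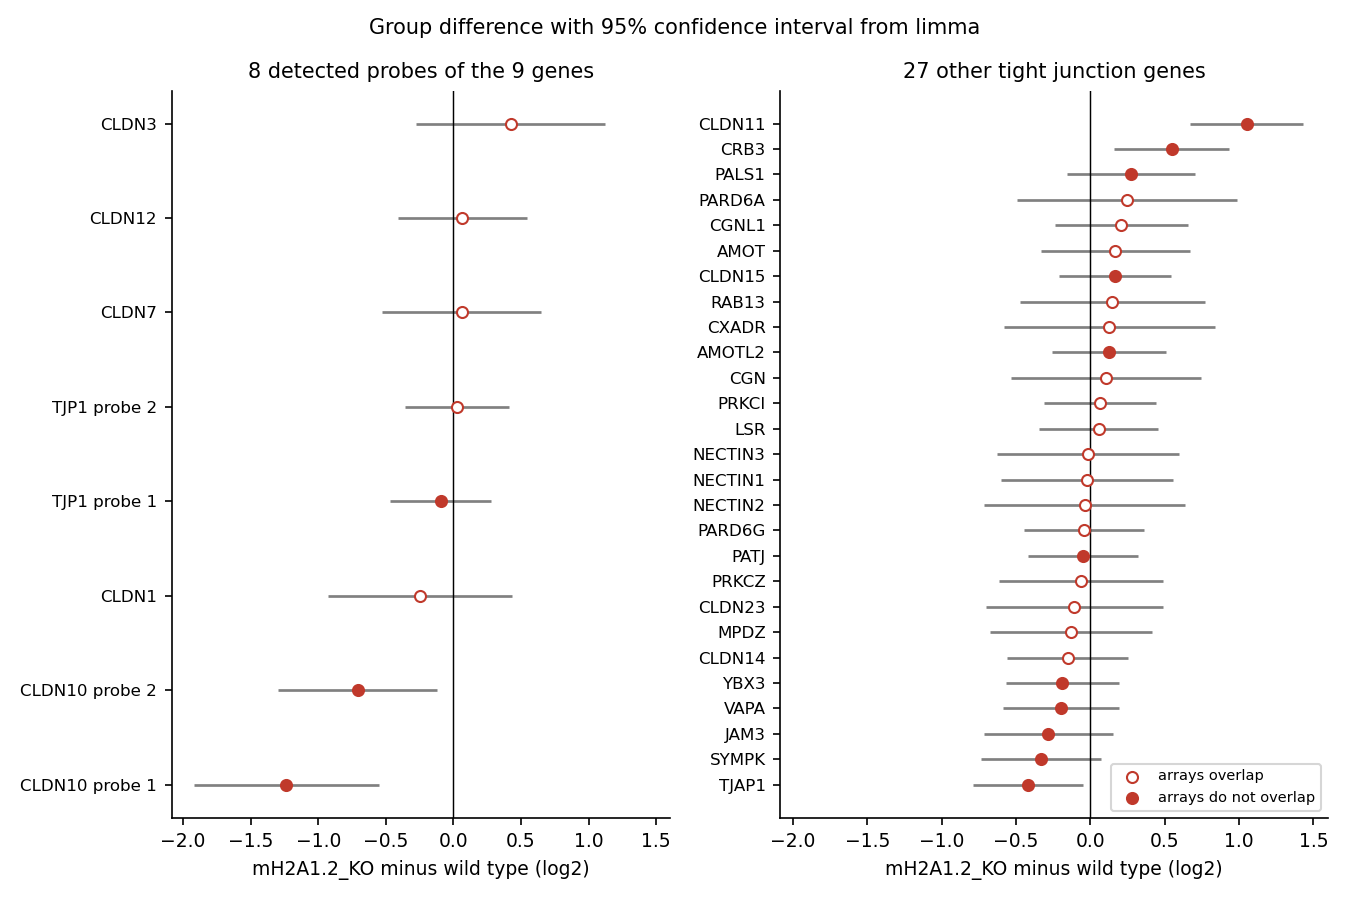
Group difference (mH2A1.2_KO minus wild type, log2, horizontal axis) with the 95% confidence interval from limma (grey bars) for the 8 detected probes of the 9 genes (left) and for the 27 detected genes of the wider set (right). Filled points have arrays that do not overlap between groups, and CLDN11 at 1.05 and the brighter CLDN10 probe at -1.24 lie at the opposite ends.

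The named genes nearest to the brighter CLDN10 probe over the 4 arrays were LGMN, GNG11 and TMSB15A, by the Euclidean distance between log2 values centred per probe, taking the nearest probe of each gene. LGMN, which encodes the lysosomal protease legumain, lay at a distance of 0.0867. It measured 8.98 and 8.53 in mH2A1.2_KO and 10.40 and 9.56 in wild type, a difference of -1.22. GNG11, a G protein gamma subunit, lay at 0.202 and differed by -1.08, and TMSB15A, an actin-binding thymosin, lay at 0.232 and differed by -1.20. Without wild type replicate 1 the differences of LGMN, GNG11 and TMSB15A were -0.81, -0.66 and -0.73, and under the raw table's naming they were -0.65, -0.69 and -0.52. Nearness over 4 arrays is a description of these arrays, with no test.

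**Figure D4:**
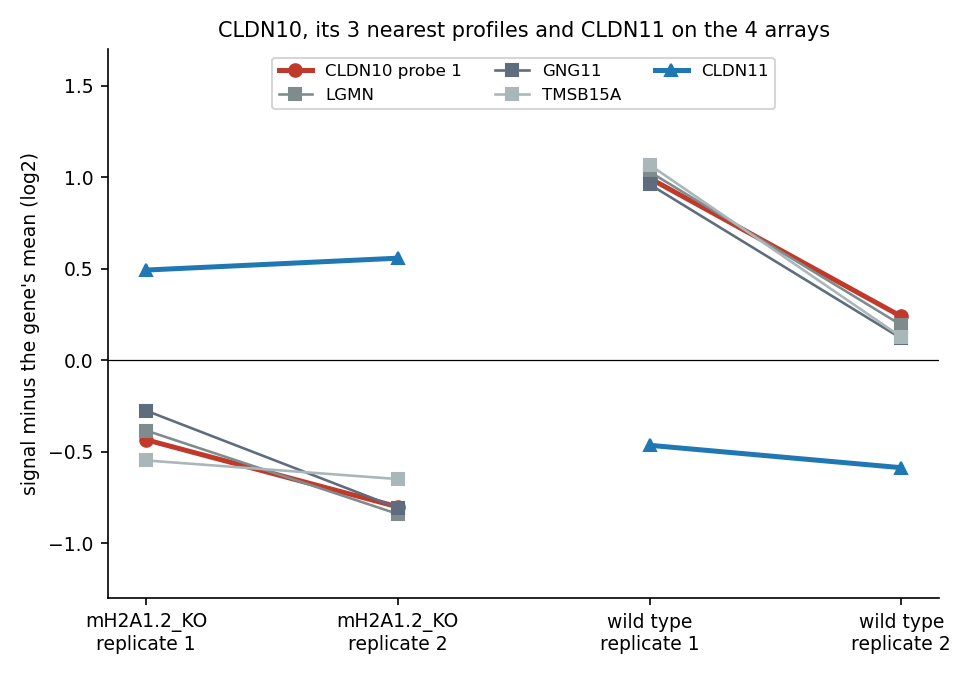
Signal minus the mean of each probe over the 4 arrays (log2, vertical axis) on each array (horizontal axis) for CLDN10 probe 1, its 3 nearest genes and CLDN11, with lines joining the arrays of a group. CLDN10 and its 3 nearest genes lie below 0 on both mH2A1.2_KO arrays and highest on wild type replicate 1. CLDN11 lies above 0 on both mH2A1.2_KO arrays and below 0 on both wild type arrays, lowest on wild type replicate 2.

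Promoter windows of the 9 genes were searched for 2 motifs on both strands. RefSeq gave 14 windows for 8 of the genes, with several starts for some and a few shared bases between the windows of OCLN. The hexamer CAGGTG, which reads CACCTG on the other strand, is the core bound by the repressors SNAI1 and ZEB1. It lay in 4 of the 14, which were 1 window of CLDN7 with 4 matches, both windows of OCLN and 1 window of TJP1, and 17.5% of all windows hold it. No window of CLDN10 held it. The hexamer GGGCGG, which reads CCGCCC on the other strand, is the core bound by SP1. It lay in 9 of the 14, among them the second start of CLDN10, CLDN3 and CLDN4, and 42.6% of all windows hold it. A GGGCGG match always contains a CpG, and the 2 motifs can share a base where they adjoin. A match describes the letters of these windows and does not show binding.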

How the data were processed

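Gene expression was measured on 4 single-colour Illumina bead arrays. The authors deposited raw intensity per probe on a linear scale for 47230 probes, with a detection p-value for each probe and array, also as deposited. The submitters' processing notes name GenomeStudio. The normalized values the authors deposited lie on a log2 scale, with the normalization not given in the sources used here. Of their 43957 rows 64 are blank. Each raw array followed 1 normalized column (correlation of about 0.998 for every array, over 7303 probes with a mean above 8.5 and centred per probe, next highest 0.0151), which crossed mH2A1.2_KO replicate 1 with wild type replicate 2. Both deposits assign arrays to samples, the normalized values in their column names and the raw values in their opening lines. The normalized columns were taken to set the groups, and which naming is right was not tested.

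The log2 values were quantile normalized across arrays and fitted with limma 3.58.1 in R 4.3.3 (lmFit, eBayes, two-sided, 2 residual and 4.26 prior degrees of freedom). Adjustment by Benjamini-Hochberg ran over all 16950 detected probes at 0.05. SE values are moderated. The labels do not say whether replicates are separate cultures. The p-values therefore cover only the spread between these arrays, possibly a technical one. Symbols came from the platform annotation, updated through RefSeq gene IDs. The fit was tested on simulated data. The genes, the wider list and the rules were chosen with earlier results of these data known. Named from the wider list are the 4 highest and 4 lowest differences among genes whose arrays do not overlap, and CLDN14, CLDN23 and PATJ were named after their values were seen. Figures were drawn with matplotlib 3.10.9. Alternatives covered normalization, detection filter, single arrays, pairing and array naming.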

Additional observations from a re-analysis of the deposited data

How the results depend on the processing

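With 2 arrays a group, signal over background limits CLDN4 and OCLN, and leaving out 1 array turned the direction of 5 of the 8 probes of the 9 genes. Adjusted calls over all probes numbered 0 in the fit reported and 5 with no detection filter, ran from 0 to 211 when 1 array was left out, and were 647 with the replicate block. The labels do not say that the replicate numbers pair the arrays, and replicate 1 minus replicate 2 correlated at 0.567 between the groups across probes. With the block the CLDN10 probes had adjusted p-values of 0.00165 and 0.0211 and CLDN11 0.00277. Probes of the 9 genes that measured higher numbered 4 of 8 as reported, 1 to 5 when 1 array was left out, 2 under the raw table's naming and 1 when only mH2A1.2_KO replicate 2 and wild type replicate 1 were compared, the 2 arrays named the same way in both tables. The median of the wider set ran from -0.13 to 0.15 when 1 array was left out and was moved beyond the spread between replicates only without wild type replicate 1, among the alternatives run.

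Of 87 alternative values of the 8 probes, 73 kept their direction. Both CLDN10 probes kept it in every alternative run, from -1.80 to -0.56 for the brighter and -1.26 to -0.43 for the second. Many of these values could not turn. Changing the detection filter or adding the replicate block leaves the difference of a probe as reported. Leaving out arrays cannot turn a probe whose groups do not overlap, as for both CLDN10 probes, so the count does not measure stability. Under the raw table's naming the direction turned for CLDN3 (-0.52), CLDN7 (-0.47), CLDN12 (-0.22) and the first TJP1 probe (0.0016). Outside the 9 genes it turned there for CLDN11 (-0.029), PALS1 (-0.23), SYMPK (0.13), VAPA (0.073), JAM3 (0.023), TJAP1 (0.0015) and MACROH2A1 (0.027 and -0.45). In that 2-array comparison it turned for CLDN3 (-0.094), CLDN7 (-0.41) and CLDN12 (-0.16). With 1 array left out the ranges that crossed 0 were -0.0046 to 0.85 for CLDN3, -0.19 to 0.31 for CLDN7, -0.15 to 0.28 for CLDN12, -0.64 to 0.15 for CLDN1 and -0.046 to 0.10 for the second TJP1 probe. The cause was not tested.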
